A study of Mus musculus with 7 samples.

Results

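Cultures of primary mouse motor neurons given a miR-218 overexpression lentivirus (OE) were compared with cultures given a miR-218 knockdown lentivirus (KD), gene by gene and without going through the control. The comparison used the 5 libraries whose titles carry OE (3 libraries) or KD (2 libraries) out of 7 in all. The other 2 came from cultures given the empty pUltra vector. They entered only the filter on low counts, the scaling, the shared estimate of spread and the description of where the control lay. All 3 groups came from C57BL/6 embryos of embryonic day 13.5, whose dissociated spinal cords were enriched for motor neurons on a density gradient. All were grown with CNTF and GDNF at 1 ng/ml and received 200 µM fluorodeoxyuridine, which acts against dividing glia, after 5 days in vitro. The labels name the KD virus but not how it acts on the microRNA. They do not name the promoter of either insert, and they do not tie the libraries of a group to separate cultures or litters. The p-values therefore measure the spread among these libraries, part of which may be technical.

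A microRNA is cut from a hairpin transcript, loaded into Argonaute and guided to messenger RNAs by its seed, the bases near its 5′ end. Pairing of the seed with a site in a 3′ UTR usually lowers the stability and translation of that messenger. miR-218 is abundant in motor neurons of vertebrate embryos and comes from a pair of hairpins that lie in introns of Slit2 and Slit3, genes of secreted axon guidance ligands.

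The mature strands of both hairpins are shown because the sites counted in the results are defined by their seeds. Capitals mark bases 2 to 8, and the sequences are those of RefSeq for build GRCm38.p6. The 5p strand is the same in both hairpins, and the seeds of the 3p strands differ.
mmu-miR-218-5p: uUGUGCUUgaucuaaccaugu
mmu-miR-218-1-3p: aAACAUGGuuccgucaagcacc
mmu-miR-218-2-3p: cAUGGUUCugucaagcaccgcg

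In a 3′ UTR the seed of miR-218-5p pairs with AAGCACA, called a 7mer-m8 match, and the same letters followed by A, AAGCACAA, are an 8mer match. The 8mer matches of the genes described first among those lower in OE follow, each in the strand of its messenger, with the match in capitals and 14 further bases before it. They lie in the last exon of each gene (genome build mm9). The Prrg3 match is at chrX:69216348-69216369 and that of Itm2c at chr1:87804796-87804817, both on the plus strand. The match of Plcxd2 is at chr16:45961466-45961487 on the minus strand. The matches of Kif21b are at chr1:138072960-138072981 and chr1:138073706-138073727, and that of Scn2b is at chr9:44937402-44937423, all on the plus strand.
Prrg3: ggttttcaaaatgaAAGCACAA
Itm2c: gggatgagtctgccAAGCACAA
Plcxd2: gacataatacacatAAGCACAA
Kif21b, first site: atccttcttgtcggAAGCACAA
Kif21b, second site: caaagggcagcttaAAGCACAA
Scn2b: agctcatgagaacaAAGCACAA

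The precursor gene Mir218-1 was examined before other genes as a check of the labels. It had 137 and 179 counts in the KD libraries and 1126, 670 and 938 in the OE libraries. As counts scaled by TMM library size (CPM) these were 42.8 and 52.5 in KD and 342, 234 and 289 in OE, so the groups lay far apart. The precursor was 6.05-fold higher in OE (log2 2.60, SE 0.15, edgeR adjusted p = 1.29e-13). It is annotated on chromosome 5 at 48615181 to 48615290 of mm9, on the plus strand and within Slit2. Its host Slit2 gave 69.9 and 68.6 CPM in KD and 61.7, 63.9 and 81.8 in OE (log2 -0.00, SE 0.17, edgeR adjusted p = 0.997), and the groups overlapped. Slit3, host of the other hairpin, had 8.12 and 17.0 CPM in KD and 15.8, 21 and 13.0 in OE, and it did not pass either (log2 0.39, edgeR adjusted p = 0.572). Mir218-2, on chromosome 11 at 35430318 to 35430427, had 0 counts in all 7 libraries. Reads over a precursor do not measure the mature microRNA, so the KD label was not checked by these counts.

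The OE and KD libraries held 2879382 to 3360686 gene counts each and the controls 1591812 and 2099714. Of 23366 genes in the table, 12134 had enough counts to be tested. Within a group, the spread of counts was 2.95 to 3.54 times what counting error alone gives (chi-square per gene), so none was a copy of another. The culture label was checked against 18 motor neuron markers, of which 10 could be tested. Mnx1 and Lhx4, transcription factors of motor neurons, had 0 counts throughout, Isl2 had 1 count in all, and the acetylcholine vesicle transporter Slc18a3 had 1 count in each of 2 OE libraries. Chat, the enzyme that makes acetylcholine, had 17 and 26 counts in KD and 2, 11 and 10 in OE. By contrast Map2, a dendritic protein of neurons in general, stood at 1346 and 1387 CPM in KD and at 1643, 1481 and 1514 in OE. Gad1, which makes the inhibitory transmitter GABA, had 252 and 300.2 CPM in KD and 245, 221 and 205 in OE. Slc17a6, a vesicular glutamate transporter, had 246.9 and 277.3 CPM in KD and 327.5, 243.2 and 242.2 in OE. Other listed motor neuron markers were detected, among them Foxp1 (means of 90.9 CPM in KD and 63.2 in OE), Ret (22.2 and 22.8) and Chodl (19.8 and 18.5). Isl1 had 23 counts in KD and 18 in OE. Mnx1, Lhx4, Isl2 and Slc18a3 were thus at or near 0 in libraries that carried neuronal, GABA-cell and glutamate-cell transcripts. The name motor neuron culture is that of the labels.

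Between OE and KD, 356 genes were higher and 287 were lower in OE by the thresholds that the labels state, an adjusted p under 0.05 and a fold over 1.5 (edgeR quasi-likelihood test). These were 2.93% and 2.37% of the tested genes, 5.30% together. Without the fold threshold 973 genes passed, 567 higher and 406 lower. The number of lower genes changed with the libraries and the tool. It was 187 without OE 1, 360 with the OE and KD libraries alone and 389 in limma-voom. DESeq2 gave 191, having set no adjusted p for 39 of the 287. Without KD 1 or KD 2 a single KD library is left, here and in all results below, and many fewer lower genes were called. Of higher genes 239 were called without KD 1 and 267 without KD 2. The authors' deposited table held 357 higher and 269 lower genes by these thresholds, of which 338 and 244 were also called here.

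**Figure D1:**
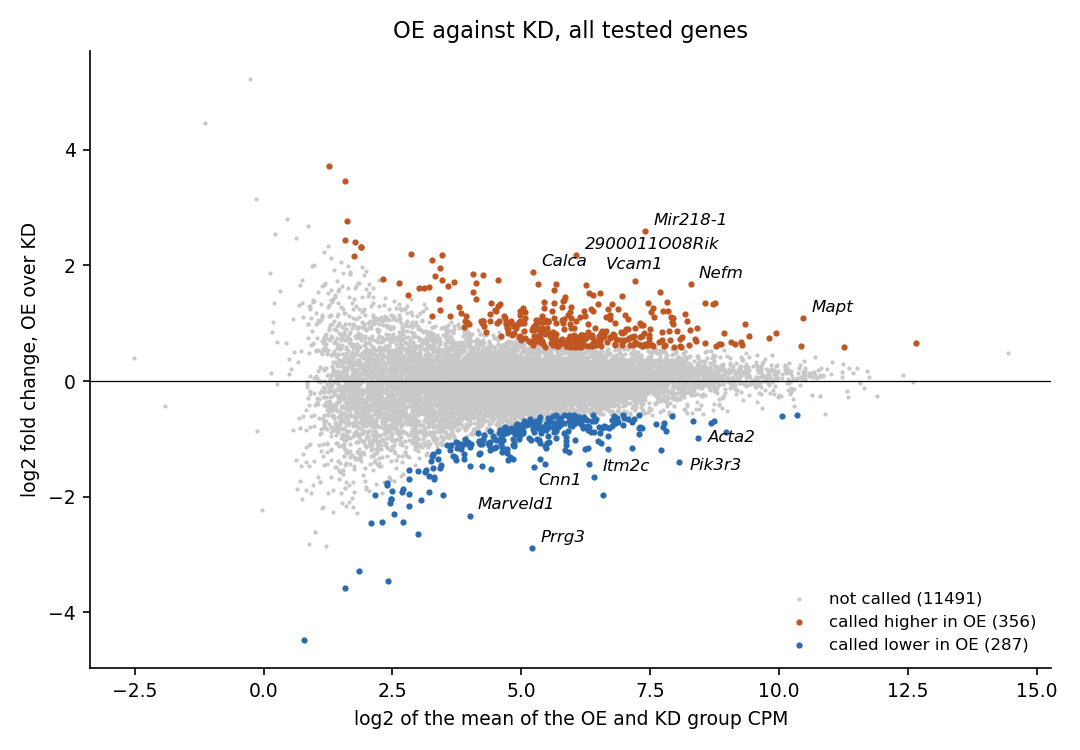
Each point is one of the 12134 tested genes, with the log2 of the mean of the OE and KD group CPM on the horizontal axis and the log2 fold change of OE over KD on the vertical axis. Orange points are the 356 genes called higher in OE and blue points the 287 called lower. Mir218-1, at log2 2.60, lies at the top among well-counted genes and Prrg3, at -2.89, at the bottom.

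Several of the genes lowest in OE had an 8mer match. Prrg3, a membrane protein with a vitamin K-dependent Gla domain, had 69.0 and 62.2 CPM in KD and 5.78, 6.64 and 13.9 in OE. It was 7.41-fold lower in OE (log2 -2.89, SE 0.27, edgeR adjusted p = 2.7e-09), and its 8mer, shown above, begins within a 3′ UTR of 5138 bases. The control libraries lay between, at 13.7 and 19.9 CPM, closer to OE. Itm2c, a membrane protein of the BRICHOS family that binds the amyloid precursor protein, had 151 and 106 CPM in KD, 35.6, 45.1 and 41.7 in OE, and 95.8 and 124 in control. It was 3.16-fold lower in OE than in KD (log2 -1.66, SE 0.17, edgeR adjusted p = 1.09e-08), and the controls overlapped with KD.

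Other genes with 8mers differed along the same direction from different starting points. Plcxd2, a phospholipase C-like protein with 4 matches in all, had 55.9 and 62.5 CPM in KD and 23.1, 22.4 and 24.1 in OE (log2 -1.35, SE 0.21, edgeR adjusted p = 2.64e-05). The controls, at 72.3 and 44.8 CPM, straddled KD. Kif21b, a kinesin motor of neurons with 2 8mers, had 73.7 and 79.5 CPM in KD and 37.7, 38.8 and 41.7 in OE (log2 -0.96, SE 0.16, edgeR adjusted p = 9.52e-05). Its control libraries stood above both, at 111 and 117 CPM. Scn2b, an auxiliary subunit of voltage-gated sodium channels, had 84.9 and 73.9 CPM in KD and 28, 34.2 and 48.1 in OE (log2 -1.11, SE 0.19, edgeR adjusted p = 0.000148), with controls of 53.8 and 55.7 between. Rassf2, a Ras-association protein with 2 8mers among 7 matches, had 38.7 and 39.9 CPM in KD and 17.6, 14.7 and 15.1 in OE (log2 -1.31, SE 0.24, edgeR adjusted p = 0.000286). Its controls, at 17.6 and 20.5 CPM, lay beside OE. In 5 8mer genes of few counts the difference was less sure. Slc29a1, a nucleoside transporter, had 37 counts in KD and 4 in OE, a ratio of 13.1 with a 95% counting interval of 4.72 to 50.7, and its call was lost without KD 1 (edgeR adjusted p = 0.0624), KD 2 (0.262) or OE 1 (0.0542). Serpinb8, Snapc2, Lmo7 and Mcf2 were each lost without either KD library, with edgeR adjusted p-values of 0.321, 0.209, 0.469 and 0.457 without KD 2. Lmo7, Serpinb8 and Snapc2 were also lost without OE 1 or OE 3, and Mcf2 without OE 2 or OE 3. In bulk RNA, fewer cells of a type and less RNA per cell cannot be told apart, here or in any gene below.

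**Figure D2:**
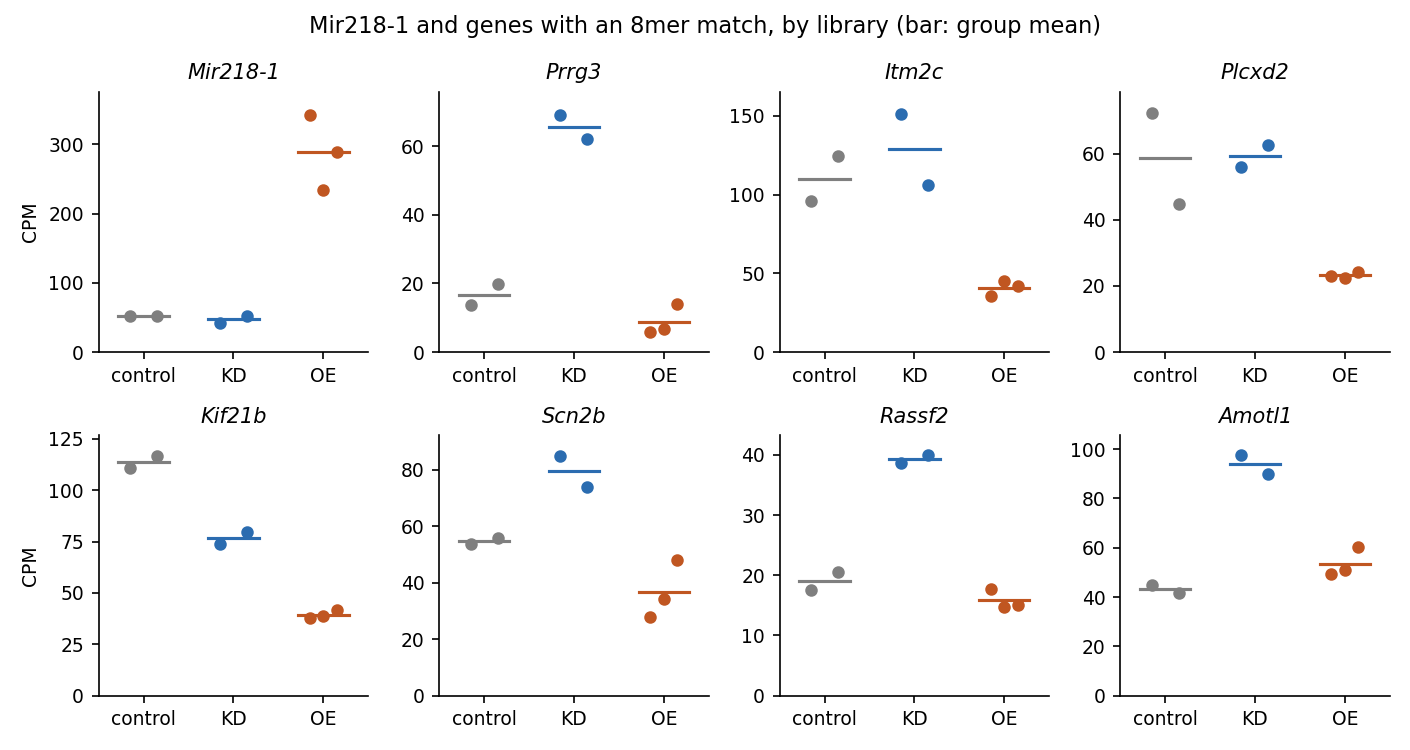
CPM of Mir218-1 and of 7 genes with an 8mer match, with 1 point per library and a bar at the mean of each group (control n = 2, KD n = 2, OE n = 3). The 3 OE libraries lie below both KD libraries in all 7 genes, while the controls lie near KD for Itm2c and Plcxd2, near OE for Rassf2, below OE for Amotl1 and above both for Kif21b.

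Across all genes the shift followed the length of the seed match. A 3′ UTR was annotated for 11133 of the tested genes (91.8%), which were sorted by their best match to miR-218-5p. The median log2 fold change of OE over KD was -0.16 in the 527 genes with an 8mer and -0.07 in the 1277 with a 7mer-m8 as their best match. It was -0.03 in the 652 with a 7mer-A1 (AGCACAA), -0.01 in the 2000 with only the 6mer AGCACA, and 0.01 in the 6677 without a match. Relative to the genes without a match the 8mer genes were displaced by -0.17 and the 7mer-m8 genes by -0.08. Single OE libraries set against the KD mean gave displacements of -0.13, -0.18 and -0.17 for 8mer genes, and single KD libraries set against the OE mean gave -0.15 and -0.16. The median of all tested genes was -0.01.

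Calls followed the same order. Of the 8mer genes 52 were lower and 11 higher in OE, so 9.87% were lower. The share was 3.60% with a 7mer-m8, 2.61% with a 7mer-A1, 1.95% with a 6mer and 1.71% without a match (114 lower, 212 higher), against 2.37% of all tested genes. Of the 7mer-m8 genes 46 were lower and 38 higher, and of the 34 genes with 2 or more 8mers 9 were lower and 0 higher, with a median of -0.27. Among genes named below, Scn9a, Sv2a and Srgap2 have an 8mer and were called higher. Mapt, Gnao1, Fads1, Sema5a, Lifr and Ccl20 were called higher with a 7mer-m8. All 3 OE libraries lay below both KD libraries in 31.9% of the 8mer genes, in 17.2% of the genes without a match and in 19.4% of all tested genes. The number of lower 8mer genes was 22 without KD 1, 24 without KD 2 and 36 to 39 without one of the OE libraries. The same omissions left 48, 40 and 70 to 101 lower genes without a match. DESeq2 called 37 lower 8mer genes.

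The 3′ UTRs of 8mer genes were longer (median 2622 bases, and 849 in genes without a match), so the shift was also read within classes of 3′ UTR length. Only 14 8mer genes had up to 500 bases, with a median of -0.18 against 0.01 in 2102 without a match. Among 3′ UTRs of over 500 to 1000 bases the median was -0.34 in 38 8mer genes and 0.02 in 1691 without a match. For over 1000 to 2000 bases the values were -0.21 in 120 genes and 0.01 in 1801. For over 2000 to 4000 bases they were -0.13 in 228 genes and 0.02 in 980, and above 4000 bases -0.12 in 127 genes and 0.09 in 103. The 8mer genes had the lower median in each class. Matches to the 3p strand of the expressed hairpin, CCATGTT, did not go with lower levels. The 637 genes that held one and lacked any match to the 5p seed had a median of 0.05, with 31 higher and 10 lower, and the 6040 genes with neither had a median of 0.01.

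**Figure D3:**
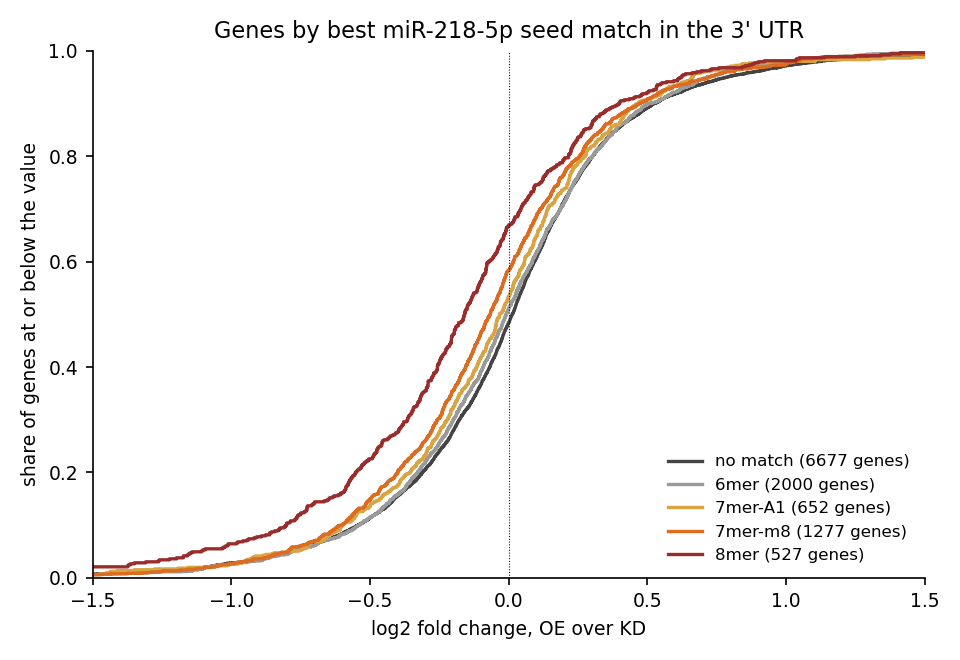
Share of genes (vertical axis) at or below each log2 fold change of OE over KD (horizontal axis, drawn from -1.5 to 1.5), by best match of the miR-218-5p seed in the 3′ UTR. The curve of the 527 8mer genes lies left of the others over most of the range, that of the 1277 7mer-m8 genes lies next to it, and the 6mer curve runs close to that of the 6677 genes without a match.

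Most targets of miR-218 named in earlier literature were not called in this contrast, but the share called lower was above that of all genes. Of 21 listed genes 20 were tested, and 15 lay below 0, with a median of -0.30. All 3 OE libraries lay below both KD libraries in 7 and above both in 2, beside 19.4% and 18.5% of all tested genes. By the thresholds 3 were lower and 1 was higher, against 2.37% and 2.93% of all genes, and 16 were not called. No test was made of these shares. Among the lower ones Vopp1, a vesicular protein, was measured at 63.7 and 64.8 CPM in KD and 33.1, 38.8 and 32.4 in OE (log2 -0.89, SE 0.18, edgeR adjusted p = 0.00108). Its single 7mer-m8 match is taaacaccaagcagAAGCACAt, at chr6:57679297-57679318 of mm9 on the minus strand. Gja1, the gap junction protein connexin 43 of astrocytes, had 146 and 181 CPM in KD and 104, 91.9 and 118 in OE (log2 -0.65, SE 0.14, edgeR adjusted p = 0.0017). Its controls, at 55.7 and 48.7 CPM, lay below both groups, so Gja1 was not lower in OE than in control. The call of Gja1 was lost without KD 2 (log2 -0.48, edgeR adjusted p = 0.164) and without OE 2, where its fold fell under the threshold (log2 -0.56). The published target that went the other way was Gpc6, a glypican of the cell surface, with 20.6 and 22.6 CPM in KD and 48.0, 46.1 and 44.1 in OE (log2 1.09, SE 0.22, edgeR adjusted p = 0.00111). Gpc6 has only a 6mer match in its annotated 3′ UTR.

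Among targets that were not called, some passed the test but not the fold. Robo2, a Slit receptor with an 8mer, had 159 and 150 CPM in KD and 121, 89.4 and 100 in OE (log2 -0.57, edgeR adjusted p = 0.00323), and passed the fold without KD 2 (log2 -0.60) or OE 1 (-0.70). Slc1a2, which clears glutamate into astrocytes, had 230 and 240 CPM in KD and 209, 166 and 177 in OE (log2 -0.35, edgeR adjusted p = 0.0261). Its levels in both groups were below the controls of 464 and 487 CPM. Kcnh1, a potassium channel with an 8mer, had 17.2 and 16.1 CPM in KD and 19.2, 19.6 and 13.9 in OE, which overlapped (log2 0.07, SE 0.28, edgeR adjusted p = 0.936). The other uncalled targets ran from -0.52 for Glce, a heparan sulfate epimerase, to 0.60 for Dcc, the netrin receptor, with Robo1 at -0.27, the repressor Bmi1 at -0.32 and the transcription factor Foxp2 at 0.26. Dcc lay near the threshold (edgeR adjusted p = 0.0701) and was called higher in 6 of the 13 alternative settings, at 0.0294 without KD 1 and 0.0371 without OE 2.

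The lower genes differed among themselves in where the control lay. For the 561 called genes whose higher group averaged at least 20 CPM, the control group was placed on the line from KD to OE in the fitted log2 values, within 0.25 of the distance from either end, between, or past an end. Of the 234 lower genes the controls lay at KD for 35 (15%), between for 59 (25.2%), at OE for 58 (24.8%), past OE for 78 (33.3%) and past KD for 4. Among those with an annotated 3′ UTR an 8mer was held by 12 of the 32 genes with the control at KD (37.5%) and by 15 of the 50 with it between (30.0%). It was held by 5 of 57 (8.77%) with the control at OE and by 7 of 76 (9.21%) with it past OE, and by 365 of the 7094 tested genes at this level (5.15%). The 327 higher genes stood differently, with the control at OE for 180 (55%) and at KD for 12 (3.67%), and 9 of the 315 with a 3′ UTR had an 8mer (2.86%). The position divides the distance from KD to control by that from KD to OE, so the KD libraries enter both distances. The genes were called on that same difference of OE and KD, and no test was made of the shares.

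Some cell division genes and contractile genes were also among the lower genes. An 8mer was held by 0 of 36 tested mitosis genes, 1 of 32 of S phase and 2 of 24 contractile genes, beside 527 of all 11133 tested genes with an annotated 3′ UTR. Smc2, a condensin subunit that compacts chromosomes in mitosis, had 53.1 and 58.4 CPM in KD and 25.5, 23.1 and 30.9 in OE (log2 -1.07, SE 0.21, edgeR adjusted p = 0.000768), beside controls of 23.9 and 18.6. Of 36 mitosis genes 11 were lower and 0 higher in OE, against 2.37% and 2.93% of all genes, with a median of -0.61. Of the 4 with the lowest fold changes, Smc2 alone kept its call when any library was left out. Cenpa, the histone variant of centromeres, was at 37.8 and 38.7 CPM in KD and 20.4, 21 and 21.6 in OE (log2 -0.86, edgeR adjusted p = 0.0178). Its call was lost without KD 1 (edgeR adjusted p = 0.127), KD 2 (0.154), OE 1 (0.0604) or OE 2 (0.0525). The number of lower mitosis genes was 3 without KD 1, 2 without KD 2, and 4, 6 and 7 without OE 1, OE 2 and OE 3, while the median of the list stayed between -0.66 and -0.50 in all 13 alternative settings.

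Of 32 genes of DNA replication and S phase 6 were lower (18.75%) and 0 higher, against 2.37% and 2.93% of all genes. In 31 the value lay below 0, with a median of -0.55. Gmnn, the replication licensing inhibitor geminin, had 28.7 and 40.8 CPM in KD and 13.1, 15.4 and 16.4 in OE (log2 -1.22, SE 0.27, edgeR adjusted p = 0.00226), and the call was lost without KD 2 (edgeR adjusted p = 0.161). Cdt1, which loads the replicative helicase and is bound by geminin, had 36.8 and 41.9 CPM in KD and 12.5, 24.1 and 19.7 in OE (log2 -1.08, edgeR adjusted p = 0.00597). It was lost without KD 2 (edgeR adjusted p = 0.125) or OE 1 (0.0584). Without KD 2 the list had 2 lower genes. Summed over the lists, mitosis genes came to 1258 and 1325 CPM in KD, 763 to 923 in OE and 409 and 468 in control, so OE lay between the other groups in every library.

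Pik3r3, a regulatory subunit of phosphoinositide 3-kinase without any match to the seed, was among the 12 lowest well-counted genes. It had 410 and 363 CPM in KD, 141, 153 and 148 in OE, and 176 and 191 in control (log2 -1.39, SE 0.10, edgeR adjusted p = 6.7e-12). KD thus stood above both other groups. Marveld1, a MARVEL-domain membrane protein with 2 7mer-m8 matches, was lower too, at 29.7 and 23.8 CPM in KD and 3.95, 2.45 and 9.26 in OE (log2 -2.33, SE 0.37, edgeR adjusted p = 4.26e-05). Abhd14a, an alpha/beta hydrolase with an 8mer (log2 -1.37), the plasminogen receptor Plgrkt (-1.43), Bend4 (-1.48) and Nhsl2, which has a 7mer-m8 match (-1.52), were also among the 12 and were called in every alternative setting. Tcfl5, a transcription factor (-1.47), and Inhbb, an activin subunit (-1.46), were also among the 12, as was Cnn1. Both were lost without KD 2, with edgeR adjusted p-values of 0.406 for Tcfl5 and 0.248 for Inhbb, and Tcfl5 also without OE 1 (0.0508).

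Of 24 tested contractile genes 8 were lower in OE and 0 higher, against 2.37% and 2.93% of all genes, and 16 were not called. Cnn1, the smooth muscle calponin, had 126 and 105 CPM in KD, 35, 47.9 and 45.4 in OE and 11.2 and 17.3 in control (log2 -1.43, SE 0.18, edgeR adjusted p = 5.2e-07). Acta2, smooth muscle actin, had 470 and 438 CPM in KD, 184, 248 and 261 in OE and 97.8 and 96.1 in control (log2 -0.98, SE 0.11, edgeR adjusted p = 8.87e-08). Tagln, the actin-binding transgelin, ran the same way with 200.1 and 195 CPM in KD and 91.5, 107 and 139 in OE (log2 -0.81, SE 0.14, edgeR adjusted p = 0.000108). All 3 genes were lowest in control, between in OE and highest in KD, with no overlap of the groups. The median of the list was -0.56, and 5 genes were lower without KD 1 and 5 without KD 2. Its high end was Mkl2, a coactivator of serum response factor, at 0.44. The summed level was 3497 and 3598 CPM in KD, 2461 to 2833 in OE and 1832 and 1877 in control. Des, the desmin filament of muscle, was at 0 throughout and Myh11, smooth muscle myosin, had 6 counts in KD and 0 in OE.

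Markers of other cells the cultures could hold were mostly not called between OE and KD. Of 20 tested astrocyte and radial glia genes 1 was higher and 1 lower (5.0% each), against 2.93% and 2.37% of all genes. At an unadjusted p under 0.05 there were 8, beside 2437 of all 12134 tested genes. The median was -0.12, with 12 below 0 and 8 above. Gfap, an astrocyte filament gene, was highest at log2 1.75 and was not called, with 6 and 8 counts in KD and 20, 31 and 16 in OE. The sum of the list was 4358 and 5061 CPM in KD and 4812 to 4999 in OE. Of 11 fibroblast and meningeal genes edgeR, DESeq2 and limma-voom called 0 (2 at an unadjusted p under 0.05, beside 2437 of all 12134 tested genes). Their sums were 310 and 333 CPM in KD and 267 to 359 in OE, and 8 of the 11 lay above 0 (median 0.34). Col1a1, the main collagen of fibroblasts, with an 8mer match, had 46.5 and 42.8 CPM in KD and 51.1, 66.0 and 78.7 in OE (log2 0.55, edgeR adjusted p = 0.0803). Every OE library thus lay above KD, and Col1a1 was called without OE 1 (0.0347). Of 8 oligodendrocyte lineage genes 1 was lower, Mbp of myelin (log2 -1.05, edgeR adjusted p = 0.0366), which was lost without KD 1 (edgeR adjusted p = 0.156), KD 2 (0.237), OE 1 (0.195) or OE 2 (0.115) and in DESeq2 (0.0864). The median of this list was -0.52, with 6 of 8 below 0 and every OE library below both KD libraries in 5, and its sum was 119 and 126 CPM in KD and 72.4 to 111 in OE. Olig1, a transcription factor of the lineage, was not called (log2 -0.78, edgeR adjusted p = 0.0644), but it was in 7 of the 13 alternative settings. Cspg4, the NG2 proteoglycan of precursors (-1.08), and Cnp, a myelin enzyme (-1.03), were called in none. The endothelial list had 3 tested genes, of which the same tools called 0 (1 at an unadjusted p under 0.05), with sums of 28.1 and 42.3 CPM in KD and 21 to 26.5 in OE. The microglial list had 2, of which the same tools called 0 (0 at an unadjusted p under 0.05), with sums of 44.6 and 46.2 CPM in KD and 30.4 to 43.2 in OE. Csf1r, the growth factor receptor of microglia, and hemoglobin Hba-a1 were at 0. The part of any of these cells in the contractile and cell division differences was not tested.

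Some genes of the neuronal cytoskeleton were higher in OE. Nefm, the medium neurofilament subunit that fills large axons, had 142 and 156 CPM in KD and 512, 401 and 512 in OE (log2 1.67, SE 0.11, edgeR adjusted p = 2.6e-12). Controls of 448 and 345 CPM overlapped with OE. Nefl, the light subunit, had 59.3 and 63.9 CPM in KD and 176, 122 and 167 in OE (log2 1.33, SE 0.15, edgeR adjusted p = 8.87e-08). An exon of Nefl overlaps one of Nefm on the other strand, and the strand setting of the counting is not given, so reads there could be assigned to either. Mapt, the microtubule-binding protein tau, had 891 and 924 CPM in KD and 1982, 1935 and 1885 in OE, a 2.13-fold difference at a gene of high count (log2 1.09, SE 0.07, edgeR adjusted p = 3.37e-13). Its controls stood at 2045 and 2130 CPM, just above OE. Dpysl5, a collapsin response mediator of growing neurites (log2 0.74), and the tubulin Tubb2b (0.65) were the other called genes of this list. Of its 24 genes 5 were higher (20.8%) and 0 lower, against 2.93% and 2.37% of all genes (median 0.18). The call of Dpysl5 was lost without KD 1 (edgeR adjusted p = 0.0501) or KD 2 (0.067) and that of Tubb2b, by its fold, without KD 1 (log2 0.56). The called genes were thus a minority of the list, but 17 of the 24 lay above 0. Every OE library lay above both KD libraries in 13 and below both in 2, beside 18.5% and 19.4% of all tested genes. Tuba1a (log2 0.49, edgeR adjusted p = 2.68e-07) and Uchl1 (0.39, 0.00566) passed the test but not the fold. Stmn1, a tubulin-binding protein, marked the low end of the list at -0.18.

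Calls among sodium and calcium channel subunits went both ways. Cacna2d1, the alpha-2-delta subunit that carries calcium channels to the terminal and binds gabapentin, had 104 and 108 CPM in KD, 329, 279 and 318 in OE and 316 and 324 in control (log2 1.54, SE 0.11, edgeR adjusted p = 3.38e-12). Cacna2d2, of the same family, had 29.0 and 26.7 CPM in KD and 77.9, 68.5 and 67.9 in OE (log2 1.36, SE 0.19, edgeR adjusted p = 3.57e-06). In both genes KD lay well below the other 5 libraries. Cacna2d3, a further alpha-2-delta gene, was not called (log2 -0.06, edgeR adjusted p = 0.888), and the groups overlapped. Of 22 sodium and calcium channel genes 5 were higher and 2 lower, against 2.93% and 2.37% of all genes. The lower genes were Scn2b, described above, and Cacnb4, a calcium channel beta subunit (log2 -1.04). Scn9a, the sodium channel of sensory neurons, has an 8mer match. It rested on 2 counts in KD and 42 in OE, a ratio of 14.8 with a counting interval of 3.85 to 126. Its call was lost without KD 1 (edgeR adjusted p = 0.155) or KD 2 (0.166) and in limma-voom (adjusted p = 0.0881). Without KD 1 and without KD 2 the list had 3 higher genes each.

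Of 44 potassium channel genes 0 were higher and 1 was lower (2.27%), against 2.93% and 2.37% of all genes. The lower gene was Kcns2, whose call was lost without any single OE or KD library (edgeR adjusted p from 0.068 without OE 2 to 0.315 without KD 2). Of 19 glutamate receptor genes 1 was higher (Grm7, log2 0.61) and 1 lower (Grik3, -0.64), 5.26% each. Of 14 GABA and glycine receptor genes 1 was lower (Gabrb2, -0.61), or 7.14%. None of these 3 calls held without KD 1, where edgeR adjusted p-values were 0.17, 0.113 and 0.302, nor without KD 2 (0.0736, 0.168 and 0.186) or OE 1 (0.0896, 0.0641 and 0.051). Grik3 and Gabrb2 were also lost without OE 2 (0.0809 and 0.122) and Gabrb2 without OE 3 (0.184), with RLE scaling (0.0549) and in DESeq2 (0.0932). Of 27 synaptic vesicle genes 2 were higher (7.41%) and 0 lower. Syt11, a synaptotagmin, had 309 and 276 CPM in KD and 468, 473 and 453 in OE (log2 0.67, SE 0.09, edgeR adjusted p = 1.09e-06). Sv2a, a vesicle protein with an 8mer match, had 11.9 and 12.3 CPM in KD and 23.4, 27.3 and 24.1 in OE (log2 1.04, edgeR adjusted p = 0.00971), and was lost without KD 1 (edgeR adjusted p = 0.103) or KD 2 (0.0858).

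Calca, Ngfr, Dnm3 and Gnao1, genes of unlike functions, were each higher in OE. Calca, which encodes the neuropeptide CGRP and was the single called motor neuron marker, had 18.1 and 13.8 CPM in KD, 62.3, 70.2 and 45.1 in OE and 28.3 and 30.1 in control (log2 1.89, SE 0.24, edgeR adjusted p = 7.78e-07). Here the control lay between the groups. Ngfr, the p75 neurotrophin receptor, had 3.12 and 4.69 CPM in KD, 17.9, 15.4 and 20.7 in OE and 29.3 and 28.8 in control (log2 2.19, SE 0.36, edgeR adjusted p = 6.08e-05). It was also a member of the Schwann cell and neural crest list, where the other 9 tested genes were not called. Of 14 neurotrophic factor receptors 2 were higher (14.3%, against 2.93% of all genes), Ngfr and Lifr. Lifr, a receptor subunit for CNTF (log2 1.01), was lost without KD 2 (edgeR adjusted p = 0.0732). Dnm3, a dynamin of synapses, had 51.5 and 44.0 CPM in KD and 153, 135 and 124 in OE (log2 1.52, SE 0.15, edgeR adjusted p = 3.37e-09). Gnao1, the G protein alpha subunit that is abundant in brain, had 237 and 191 CPM in KD and 571, 511 and 546 in OE (log2 1.34, SE 0.10, edgeR adjusted p = 5.62e-12). For Dnm3 and Gnao1 the controls, at 187 and 172 CPM and at 654 and 735 CPM, were higher still.

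**Figure D4:**
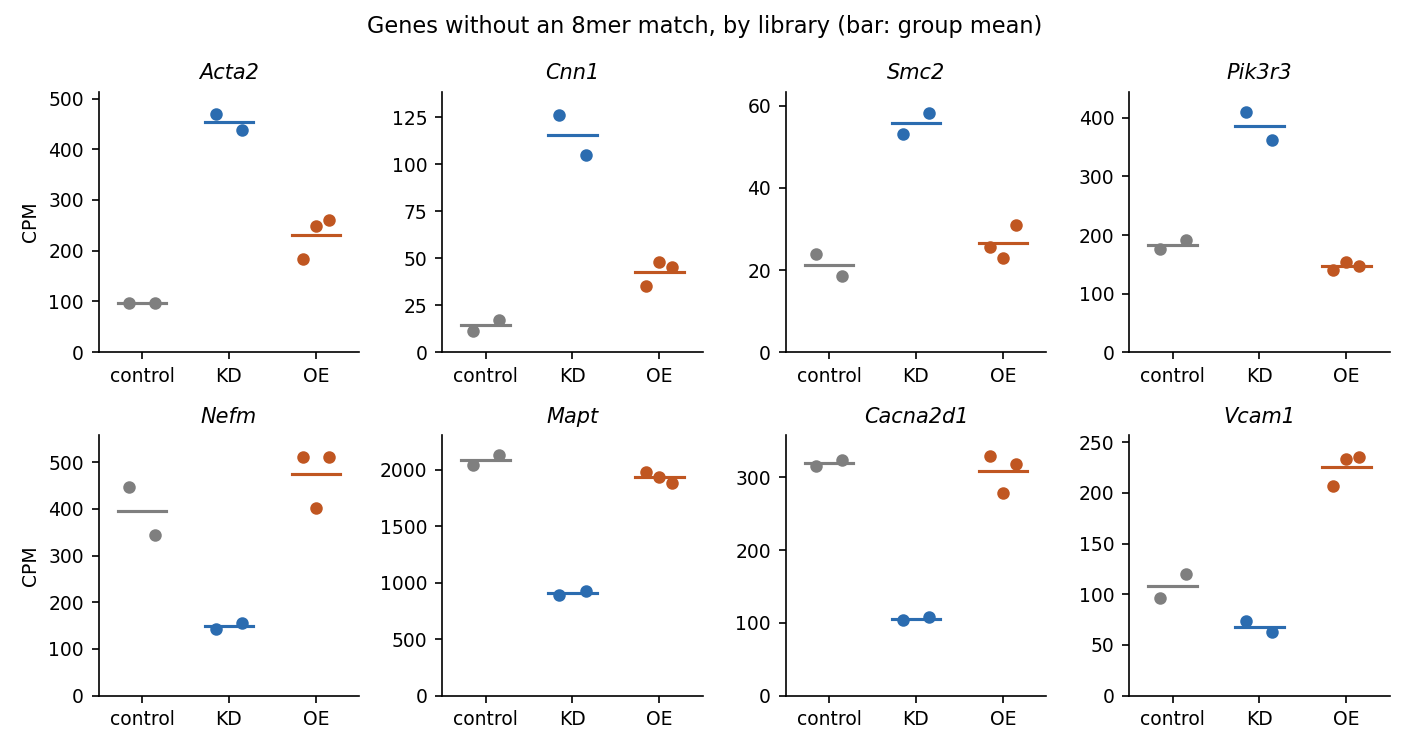
CPM of 8 genes without an 8mer match, with 1 point per library and a bar at the mean of each group (control n = 2, KD n = 2, OE n = 3). In the upper row KD lies highest, and the controls lie below OE for Acta2 and Cnn1 and beside it for Smc2 and Pik3r3. In the lower row KD lies lowest, with the controls near OE for Nefm, Mapt and Cacna2d1 and nearer to KD for Vcam1.

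Several genes of inflammation were higher in OE. Vcam1, an adhesion molecule for white blood cells, had 73.4 and 63.1 CPM in KD, 207, 234 and 236 in OE and 96.8 and 120 in control (log2 1.73, SE 0.13, edgeR adjusted p = 3.65e-11). Serpina3n, a protease inhibitor of reactive glia, had 5.93 and 8.51 CPM in KD and 31.6, 22.4 and 24.7 in OE (log2 1.85, SE 0.33, edgeR adjusted p = 0.000215). Of 24 chemokine and acute-phase genes 7 were higher and 0 lower (median 0.27), against 2.93% and 2.37% of all genes. The others were the complement gene C3 (log2 1.35), lost without KD 2 (edgeR adjusted p = 0.0804), and the chemokines Cxcl1 (1.19), Ccl2 (1.08), Ccl20 (2.10) and Cxcl2 (3.47). Cxcl2 had 3 counts in KD and 51 in OE, a ratio of 12 with a counting interval of 3.87 to 60.0. Its call was lost without KD 2 (edgeR adjusted p = 0.238), OE 2 (0.0602) or OE 3 (0.0614) and in limma-voom (adjusted p = 0.0559), and that of Ccl20 without KD 1 (0.066). The summed level of the list was 610 and 656 CPM in KD, 927 to 991 in OE and 651 and 653 in control. In this sum OE stood apart from both other groups, but single members differed. The controls of Serpina3n (18.1 and 38.4 CPM) and C3 (16.6 and 34.0) overlapped with OE. Those of Ccl2 (55.2 and 43.6) and Ccl20 (5.38 and 1.28) lay below OE. In 6 of the 24 genes the value lay below 0, with Il33 lowest at log2 -1.17. Of 21 interferon response genes 1 was higher and 1 lower (4.76% each). The lower one was Ifit2, an interferon-induced RNA-binding protein (log2 -1.57), whose call was lost without KD 2 (edgeR adjusted p = 0.61), OE 1 (0.103) or OE 3 (0.0766).

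Transporters and lipid enzymes gave further calls. Slc7a8, an exchanger of neutral amino acids, had 21.2 and 17.0 CPM in KD, 67.5, 63.6 and 51.8 in OE and 85.5 and 87.8 in control (log2 1.67, SE 0.20, edgeR adjusted p = 4.23e-07). Slc38a1, the glutamine transporter of neurons, with a 7mer-m8 match, had 267 and 279 CPM in KD, 160, 180 and 136 in OE and 247 and 274 in control (log2 -0.79, SE 0.11, edgeR adjusted p = 4.4e-06). Slc38a1 was thus low in OE alone, and Slc7a8 was lowest in KD. Of 18 amino acid transporters 3 were lower (16.7%) and 1 higher (5.56%), against 2.37% and 2.93% of all genes. The lower ones included Slc38a1 and Slc6a11, the GABA transporter GAT-3 of astrocytes (log2 -0.63, edgeR adjusted p = 0.00286). Slc6a11 was lost without KD 2 (log2 -0.54, edgeR adjusted p = 0.112) and, by its fold, without OE 3 (log2 -0.57).

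Fads1, a desaturase that makes long polyunsaturated fatty acids, had 158 and 161 CPM in KD, 352, 320 and 305 in OE and 363 and 388 in control (log2 1.03, SE 0.10, edgeR adjusted p = 3.89e-09). Of 13 fatty acid synthesis genes 2 were higher (15.4%) and 0 lower, against 2.93% and 2.37% of all genes. Of 21 cholesterol synthesis genes 3 were higher (14.3%) and 0 lower (median 0.23). The higher genes were Sc5d, a late desaturase of the pathway (log2 0.82), Fdps, which makes farnesyl diphosphate (0.75), and the isomerase Idi1 (0.59). Without KD 1 the list had 1 higher gene, since Fdps missed the test (edgeR adjusted p = 0.0535) and Idi1 missed the fold (log2 0.53). Sc5d was lost without KD 2 (edgeR adjusted p = 0.116), and Idi1 missed the fold without OE 1 as well (log2 0.55). Summed cholesterol genes came to 2453 and 2488 CPM in KD, 2970 to 3140 in OE and 3785 and 3838 in control, with OE between.

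Other lists held few calls. Of 24 genes of p53 targets and cell death 1 was higher (4.17%) and 2 were lower (8.33%), against 2.93% and 2.37% of all genes. Ccng1, a cyclin induced by p53, had 251 and 249 CPM in KD and 396, 436 and 413 in OE (log2 0.73, SE 0.10, edgeR adjusted p = 3.76e-06), above controls of 250 and 190. The lower genes were Bbc3, the apoptosis effector PUMA (log2 -0.73; edgeR adjusted p = 0.209 without KD 2), and Btg2 (-0.67; edgeR adjusted p = 0.088 without KD 1, 0.101 without KD 2 and 0.0509 without OE 1). Of 18 genes of the Hippo pathway 1 was higher and 1 lower (5.56% each). The lower gene was Amotl1, an angiomotin that binds the coactivator YAP, which has an 8mer at chr9:14349427-14349448 on the minus strand of mm9, tcatgttctgttatAAGCACAA. It had 97.7 and 90.0 CPM in KD and 49.3, 51.0 and 60.2 in OE (log2 -0.81, SE 0.16, edgeR adjusted p = 0.000903). The higher gene was Nf2, the tumour suppressor merlin, with 50.6 and 44.0 CPM in KD and 85.2, 83.2 and 79.6 in OE (log2 0.81, SE 0.16, edgeR adjusted p = 0.000883).

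No member was called by edgeR among 29 genes linked to amyotrophic lateral sclerosis (ALS), beside 5.30% of all tested genes. Their median was -0.02, with values from -0.74 for Ccnf to 0.51 for Fig4. At an unadjusted p under 0.05 there were 8, beside 2437 of all 12134 tested genes, and DESeq2 called 0 and limma-voom 1. Of 24 genes of the unfolded protein and integrated stress responses edgeR, DESeq2 and limma-voom called 0 (median -0.06), with 8 at an unadjusted p under 0.05. Of 16 genes of the microRNA machinery all 3 tools called 0 (median -0.07), with 2 at an unadjusted p under 0.05. Of 12 spinal interneuron markers 1 was lower (8.33%, against 2.37% of all genes), Bhlhe22, a transcription factor (log2 -1.14). It was lost without KD 1 (edgeR adjusted p = 0.061), KD 2 (0.378), OE 2 (0.0597) or OE 3 (0.169) and in DESeq2 (0.0883). Of 22 activity-dependent genes 1 was higher (4.55%, against 2.93% of all genes), the AP-1 factor Jund (log2 0.61, edgeR adjusted p = 0.000218). Of 9 precursor and Slit-Robo genes Mir218-1 and Srgap2, a Slit-Robo GTPase activator with an 8mer (log2 0.62), were higher (22.2%) and 0 were lower. Srgap2 was lost without KD 1 (edgeR adjusted p = 0.0531) and, by its fold, without OE 2 (log2 0.50). Of 33 collagen, laminin and integrin genes 1 was higher (3.03%), the matrix protein Thbs2 (log2 0.76), which missed the fold without KD 1 (log2 0.57). Of 20 glycolysis genes 1 was higher (5.0%), the aldolase Aldoa (log2 0.64), which missed the fold without KD 2 (log2 0.51).

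**Figure D5:**
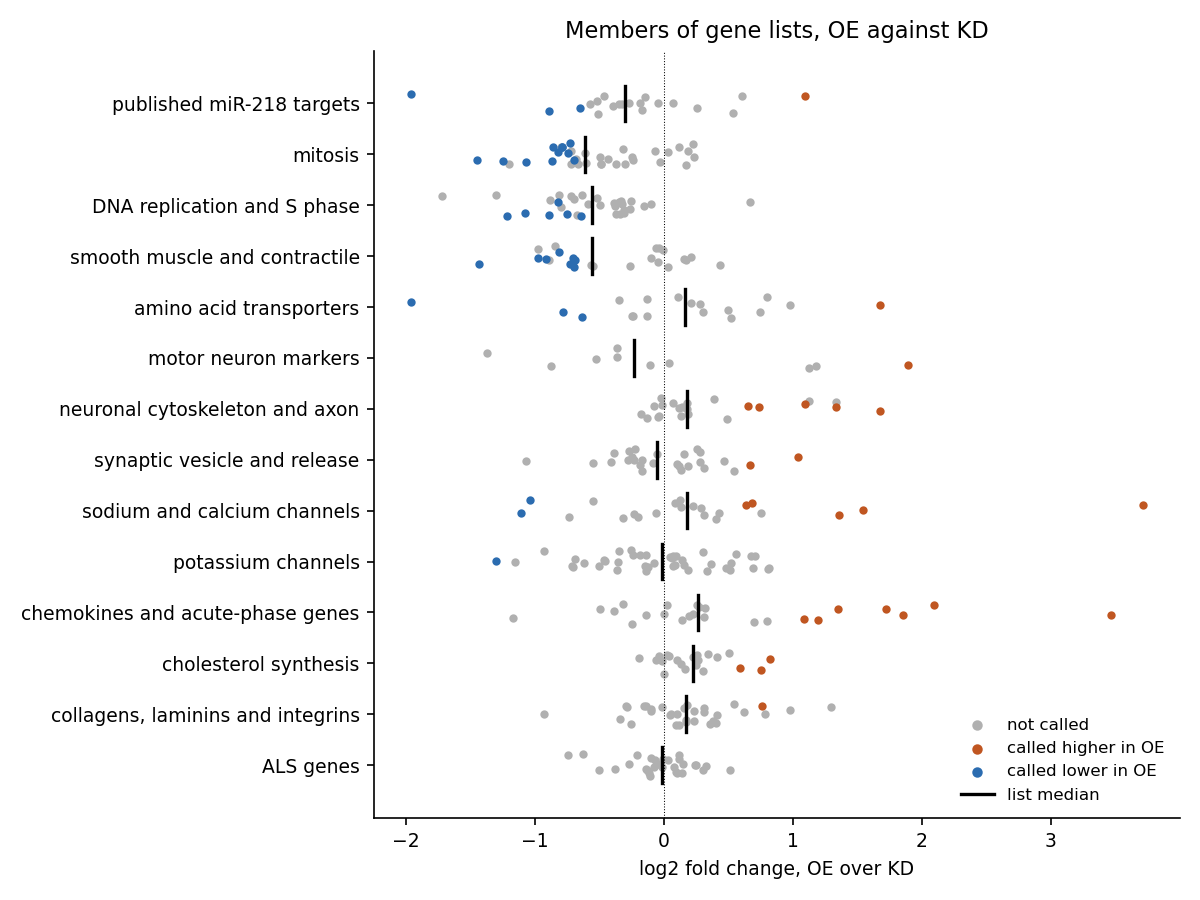
Log2 fold change of OE over KD (horizontal axis) for the tested members of 14 gene lists (rows), with 1 point per gene, orange where called higher in OE, blue where called lower and grey otherwise, and a black bar at the median of each list. The mitosis, S phase and contractile lists lie left of 0 with medians of -0.61, -0.55 and -0.56, the chemokine list has 7 orange points, and the list of ALS genes has none of either colour.

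The remaining genes of the 12 highest in OE were 2900011O08Rik, Sirt2, Sema5a, Acyp1, Plagl1 and Cp. 2900011O08Rik had 20.9 and 27.6 CPM in KD, 122, 112 and 95 in OE and 95.8 and 119 in control (log2 2.17, SE 0.18, edgeR adjusted p = 2.25e-10). Sirt2, a deacetylase that acts on tubulin, had 9.68 and 7.04 CPM in KD, 28, 30.4 and 31.2 in OE and 29.8 and 34.6 in control (log2 1.83, SE 0.28, edgeR adjusted p = 2.25e-05). Both were low in KD alone, and an exon of each overlaps a gene of the other strand, Ifitm7 and Nfkbib. Sema5a, an axon guidance semaphorin (log2 1.75), the acylphosphatase Acyp1 (1.71), the imprinted zinc finger gene Plagl1 (1.67) and the copper protein ceruloplasmin, Cp (1.66), were called in every alternative setting. For the 12 higher genes with the control at KD, Mir218-1 and Wipi1 are examples. Wipi1, an autophagy protein, had 13.1 and 14.1 CPM in KD, 27.7, 37.4 and 37.6 in OE and 14.2 and 16.7 in control (log2 1.33, SE 0.26, edgeR adjusted p = 0.000809). Abca1, which exports cholesterol from cells, had 43.7 and 29.9 CPM in KD, 80.9, 74.8 and 76.5 in OE and 28.3 and 23.1 in control (log2 1.07, SE 0.19, edgeR adjusted p = 0.000218).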

How the data were processed

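Per the labels' protocols, the authors mapped 50-base single reads to mm9 with TopHat2 2.0.10 and counted unique reads per gene with HTSeq-count 0.6.1p1. Neither annotation nor strand setting is stated, and exons of Tagln, Cp, Cacna2d2, Dnm3, Gnao1, Jund, Bend4, Tcfl5, Scn9a, Slc29a1, Slc1a2, Grm7, Cacnb4, Cnp, Col1a1 and Mkl2 overlap genes of the other strand, and those of Ccnf and Stmn1 a gene of the same strand, so those values are uncertain. The raw counts were analysed as deposited, and 7 further per-sample columns of scaled counts were not used. The authors' deposited log2 fold changes, adjusted p-values and signed fold scores (DESeq2 1.4.5, per the labels' protocols) served only to count calls.

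A single edgeR 4.0.16 quasi-likelihood fit (R 4.3.3; TMM, filterByExpr by group, robust) of the 7 libraries gave the tests of OE against KD, two-sided, with Benjamini-Hochberg adjustment over 12134 genes, 4 residual degrees of freedom and a biological coefficient of variation of 12.5%. CPM use TMM-scaled library totals. Intervals of count ratios are exact, at 95%, for counting error alone. The fit was tested on simulated data first. Seed matches come from the longest 3′ UTR per gene in the GENCODE annotation of mm9. Alternatives were DESeq2 1.42.0, limma-voom (limma 3.58.1), other scaling, no filter, the OE and KD libraries alone, a replicate block and left-out libraries.

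Genes named are the 12 highest and 12 lowest called genes with a mean of at least 20 CPM in the higher group and no overlap, up to 4 called genes per list, the published targets, the 8 lowest called 8mer genes, 3 per place of the control and the markers. Other called list members, and genes at the ends of a list, were named after their values were seen. The comparison, the 34 gene lists and the rules were chosen with earlier results of these data known. The red blood cell list had 0 tested genes. Some items that these rules name are not reported here.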

Additional observations from a re-analysis of the deposited data

How the results depend on the processing

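None of the 97 called genes followed through 13 alternative settings, which include every called gene named, changed direction. For 126 genes followed beside Mir218-1, 1468 values stayed on their side of the threshold, 136 lost the call and 17 gained one, and 50 of 97 called genes, Mir218-1 included, kept their call in all settings in which an adjusted p was given. The count of higher genes was 239 to 410 when single libraries were left out and that of lower genes 110 to 356; DESeq2 called 191 lower genes, all among the 287. The cause was not tested, beyond the smaller number of libraries. Mir218-1 stayed between log2 2.46 and 2.77, and the displacement of 8mer genes between -0.19 and -0.15. Of the medians of the lists 389 stayed within the spread of the OE libraries and 40 moved by more. The labels do not say whether the same replicate number marks a shared culture. The deviations of OE 1 and KD 1 correlated at -0.02 and those of OE 2 and KD 2 at -0.03 across genes. With 2 KD libraries the KD deviations mirror each other, so these values cannot decide whether the numbers pair the libraries. With the replicate block 325 genes were higher and 231 lower, 299 and 189 of them shared with the fit without it. OE 3 is the only library numbered 3, so the block also takes it out of the contrast. Bhlhe22, for example, stood at log2 -0.74 with the block and -0.73 without OE 3. Calls lost with the block thus cannot be told apart from an effect of losing OE 3. Named genes not called with the block were Bhlhe22 (edgeR adjusted p = 0.18), Kcns2 (0.0761), Scn9a (0.062), Gabrb2 (0.125), Ifit2 (0.0799), Serpinb8 (0.17), Snapc2 (0.145), Lmo7 (0.108), Mcf2 (0.187) and, by its fold, Slc6a11 (log2 -0.58), and Olig1 was called with it (0.00124). With under 10 counts over a whole group, as in Scn9a and Cxcl2 in KD and Slc29a1 in OE, depth limits the fold.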
